A study of Mus musculus with 12 samples.

Results

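The comparison described here is that of CD4 T cells with CD8 T cells sorted from the lymph nodes (LN) of FlipFlop mice. Its members were taken from the sample labels as every library labelled FlipFlop CD4 or FlipFlop CD8 T cells, which gave 6 of the 12 libraries of the series, 3 in each of the 2 groups. The other 6 libraries came from CD4 and CD8 T cells of B6 (C57BL/6) mice, and they are used below only to ask whether the FlipFlop difference was larger or smaller than the B6 difference turned round. FlipFlop mice carry a pair of altered alleles. In one the Cd8a locus was rebuilt to encode the coreceptor protein CD4, and in the other the Cd4 locus was rebuilt to encode the α and β chains of CD8 (the CD8.1 form). Both FlipFlop groups carried the same alleles, came from females aged 14 weeks and differed in the labels only in the sorted coreceptor, whereas the B6 mice were females aged 10 weeks. The alleles are carried in the germ line and no agent was given. The altered Cd8a allele was made in ES cells of 129 origin and the altered Cd4 allele in B6 ES cells. The authors state that genes of strain 129 remain in FlipFlop mice, from which both FlipFlop groups came. Nothing in the labels says whether replicates came from separate mice, so p-values measure the spread between these libraries, which may be technical.

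CD4 and CD8 are coreceptors that T cells use beside the T cell receptor (TCR). CD4 binds class II MHC molecules and CD8 binds class I MHC molecules on the cells that present peptide. In wild-type mice most class II-specific CD4 T cells carry a helper program under the transcription factor ThPOK (gene Zbtb7b), and most class I-specific CD8 T cells carry a cytotoxic program under Runx3. Regulatory T cells, which depend on the transcription factor Foxp3, and follicular helper T cells, which depend on Bcl6, are usually found in the CD4 population. The comparison addresses which of these programs goes with each coreceptor when the coding sequences have changed places.

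RNA-sequencing values were given as CPM, read counts relative to library size, scaled by TMM, a factor for library composition. The 6 libraries held about 26600000 to 32300000 reads on listed genes, so the upper limit for a gene without reads, taken as 3 reads, was worth 0.0857 to 0.112 CPM. This floor covers counting error only. Of 12809 genes in the table, 11307 reached 1 CPM in 3 or more of the 6 FlipFlop libraries and were tested with limma on log2(CPM + 0.5). All log2 differences below are FlipFlop CD4 minus FlipFlop CD8 on that scale, which understates the change of low genes, so a positive value means a higher level in FlipFlop CD4 T cells. A gene under 1 CPM in every library of 1 group was tested only through the other group, so the filter fixed its direction. The list counts and medians below include such genes. The libraries are bulk samples, in which fewer cells of a type and less RNA per cell cannot be told apart.

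At an adjusted p-value (Benjamini-Hochberg) under 0.05, 3817 genes (33.8% of those tested) differed, of which 1925 (17.0%) were higher in FlipFlop CD4 and 1892 (16.7%) were higher in FlipFlop CD8 T cells. With the replicate number as a block 5785 genes passed, 3184 of them higher in CD4, and these included all 3817. Without the TMM factor the median difference of all genes moved by -0.17, from 0.04 to -0.13, and the share of calls that were higher in CD4 changed from 50.4% to 20.0%. Directions of differences of that size therefore rest on the scaling. The number higher in CD4 was 1132 without FlipFlop CD8 replicate 2 and 1251 without FlipFlop CD8 replicate 3.

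Large differences were unequal in number. At an unadjusted p under 0.0001 and a difference of more than 5-fold, 248 genes (2.19%) were called, 216 (1.91%) higher in FlipFlop CD8 and 32 (0.283%) higher in FlipFlop CD4 T cells. In none of these genes did the 2 groups overlap, which was so for 47.6% of all genes tested, and every one kept its sign without the TMM factor and an adjusted p under 0.05 when any 1 library was left out. The limits that chose these genes favour such results, which describe the genes and are no separate support. The 216 genes were mostly of low abundance, with a median of 10.4 CPM in FlipFlop CD8 T cells, against a median of 24.8 CPM in FlipFlop CD4 T cells for the 32. In 15 of the 216 genes and 1 of the 32, every library of the lower group was at or under 3 reads. The gene lists used below covered 51 of the 248 genes.

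**Figure D1:**
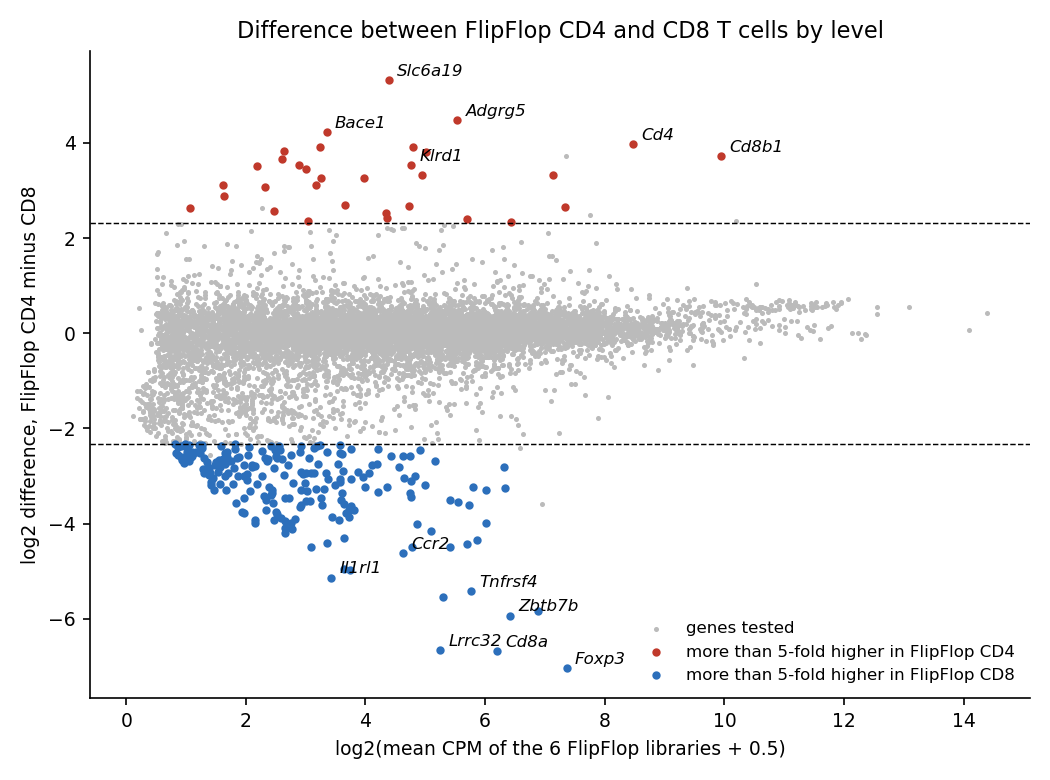
Each point is a gene, with the log2 of its mean CPM over the 6 FlipFlop libraries on the horizontal axis and the log2 difference, FlipFlop CD4 minus CD8, on the vertical axis. Dashed lines mark 5-fold, red points are the 32 genes called higher in CD4 and blue points the 216 called higher in CD8. Foxp3, Cd8a, Lrrc32 and Zbtb7b lie lowest and Slc6a19 and Adgrg5 highest.

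The coreceptor transcripts themselves were compared first, since they check the labels. Cd4 (chr6:124864692-124888221, minus strand of GRCm38) was at 719, 652 and 637 CPM in the FlipFlop CD4 libraries and at 40.9, 42.2 and 43.6 CPM in the FlipFlop CD8 libraries. The groups were far apart, with a log2 difference of 3.97 ± 0.06 (SE, adjusted p = 4.6e-08), yet Cd4 reads in FlipFlop CD8 T cells were well above those of the B6 CD8 group (1.46 ± 0.90 CPM, SD, n = 3). Cd8a (chr6:71373427-71379173, plus strand) was at 0.854, 0.942 and 0.967 CPM in FlipFlop CD4 and at 159, 139 and 138 CPM in FlipFlop CD8 T cells, a difference of -6.68 ± 0.09 (adjusted p = 2.3e-08). Its FlipFlop CD8 level of 145 ± 11.7 CPM (SD, n = 3) compared with 1489 ± 15.3 CPM for the B6 CD8 group. The third coreceptor gene, Cd8b1 (chr6:71322788-71337494, plus strand), encodes the CD8 β chain and went the other way. It was at 1962, 1887 and 1639 CPM in FlipFlop CD4 and at 151, 136 and 125 CPM in FlipFlop CD8 T cells, a log2 difference of 3.73 ± 0.10 (adjusted p = 3.8e-07). In B6 mice Cd8b1 was at 23.8 ± 3.86 CPM in the CD4 group and 1885 ± 43.2 CPM in the CD8 group (SD, n = 3), so its direction was reversed between the strains. The sorted coreceptor therefore matched the labels in all 6 libraries for Cd4 and Cd8a, while Cd8b1 reads were 13.3 times as high in the CD4 sort as in the CD8 sort. The sources used here do not say how reads of the inserted sequences were assigned to Cd4, Cd8a and Cd8b1, so these 3 values do not separate transcripts of the altered loci from others.

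**Figure D2:**
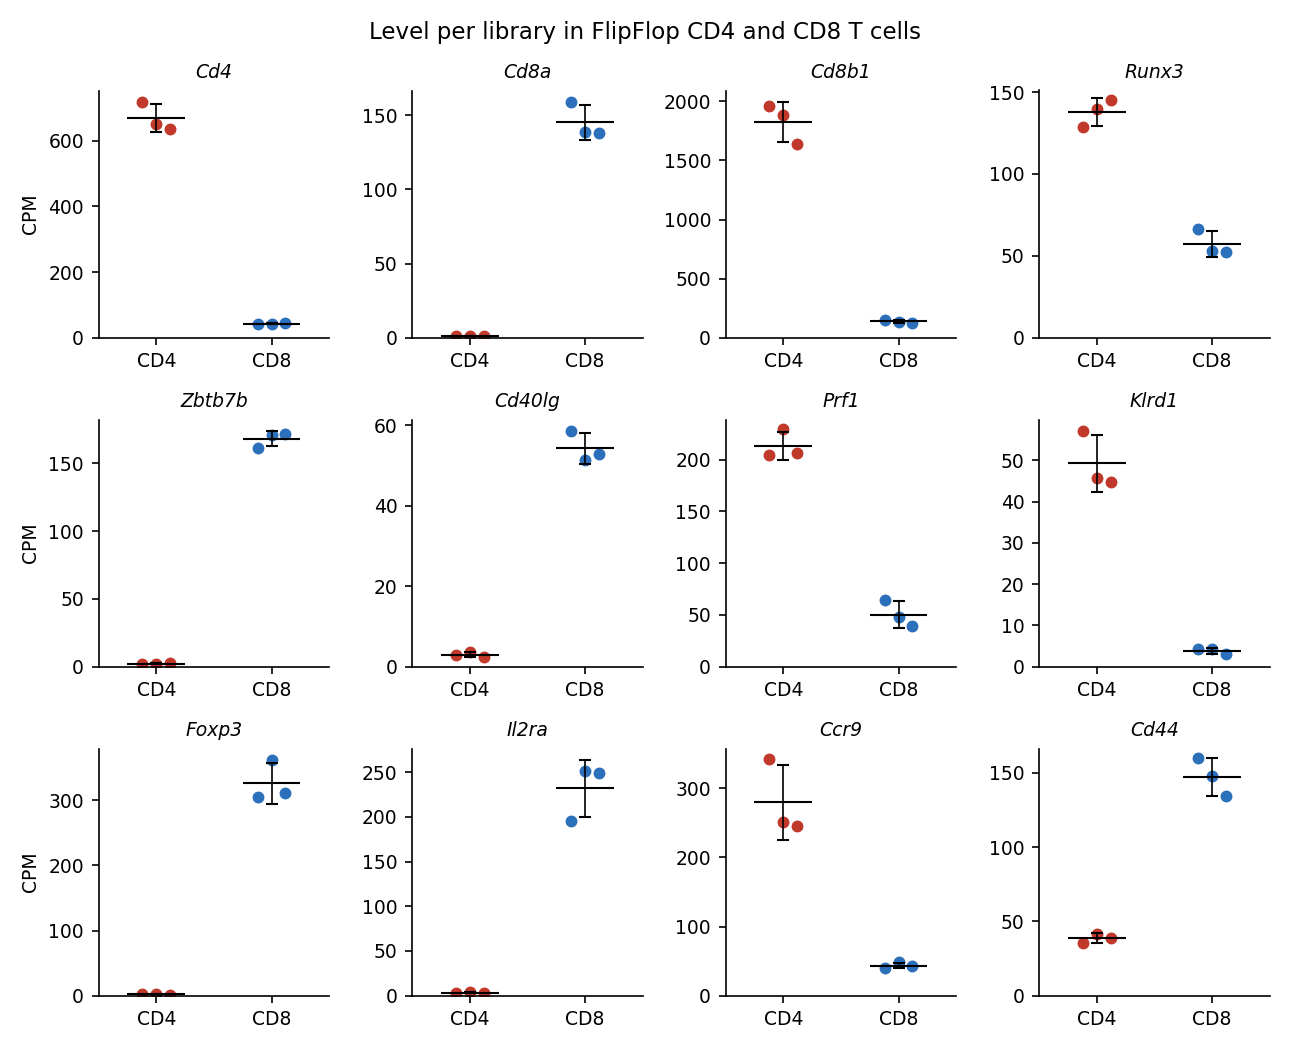
CPM (vertical axes, each from 0) of 12 genes in the FlipFlop CD4 (red) and FlipFlop CD8 (blue) libraries, with 1 point per library and the mean ± SD of 3 libraries. In every panel the groups are apart: Cd4, Cd8b1, Runx3, Prf1, Klrd1 and Ccr9 are higher in CD4, and Cd8a, Zbtb7b, Cd40lg, Foxp3, Il2ra and Cd44 are higher in CD8.

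Both lineage factors differed. Zbtb7b, which encodes the helper factor ThPOK, was at 1.87, 2.21 and 2.79 CPM in FlipFlop CD4 and at 162, 171 and 172 CPM in FlipFlop CD8 T cells, a log2 difference of -5.93 ± 0.12 (adjusted p = 9.0e-08). Runx3, the factor of cytotoxic T cells, was at 129, 140 and 145 CPM in FlipFlop CD4 and at 66.2, 52.9 and 52.6 CPM in FlipFlop CD8 T cells (1.27 ± 0.10, adjusted p = 4.9e-05). Thus Zbtb7b was nearly absent from one group, whereas Runx3 was detected in both and differed 2.41-fold.

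Promoters of 4 of the genes with the largest differences are shown, so that the letters upstream of genes that differ in opposite directions can be read. They are Slc6a19 (a transporter of neutral amino acids) and Adgrg5 (an adhesion G protein-coupled receptor), which had the 2 largest differences toward FlipFlop CD4, and Foxp3 and Zbtb7b, which encode regulatory and helper T cell factors and were higher in FlipFlop CD8 T cells. Each runs from 250 bases before to 50 after a RefSeq transcript start in GRCm38.p6, 5′ to 3′ on the gene's strand. For Adgrg5 this start is that of the GENCODE gene, whereas for Slc6a19, Foxp3 and Zbtb7b it lies 12229, 6032 and 1398 bases from it. They lie at chr13:73692587-73692886 (minus), chr8:94923444-94923743 (plus), chrX:7579426-7579725 (plus) and chr3:89393329-89393628 (minus). Capitals mark the RUNX core (TGTGGT), the TCF/LEF core (CTTTGA) or the T-box core (GGTGTGA), searched on both strands.
Slc6a19: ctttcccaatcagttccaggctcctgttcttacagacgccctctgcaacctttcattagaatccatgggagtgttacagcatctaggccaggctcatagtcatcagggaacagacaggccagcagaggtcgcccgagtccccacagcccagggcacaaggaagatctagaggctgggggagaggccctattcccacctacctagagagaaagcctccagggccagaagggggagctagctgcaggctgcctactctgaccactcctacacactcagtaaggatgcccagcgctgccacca
Adgrg5: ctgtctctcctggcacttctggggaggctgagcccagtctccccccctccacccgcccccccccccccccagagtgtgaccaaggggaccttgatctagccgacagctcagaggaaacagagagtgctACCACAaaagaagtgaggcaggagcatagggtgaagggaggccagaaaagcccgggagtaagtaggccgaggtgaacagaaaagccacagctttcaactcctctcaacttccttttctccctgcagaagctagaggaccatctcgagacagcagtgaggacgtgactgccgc
Foxp3: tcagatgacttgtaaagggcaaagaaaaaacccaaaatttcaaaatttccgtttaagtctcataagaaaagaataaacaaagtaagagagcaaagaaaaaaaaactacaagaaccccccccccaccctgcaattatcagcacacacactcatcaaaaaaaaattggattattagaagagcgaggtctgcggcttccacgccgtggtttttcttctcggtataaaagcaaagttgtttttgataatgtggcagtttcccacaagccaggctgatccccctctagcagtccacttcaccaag
Zbtb7b: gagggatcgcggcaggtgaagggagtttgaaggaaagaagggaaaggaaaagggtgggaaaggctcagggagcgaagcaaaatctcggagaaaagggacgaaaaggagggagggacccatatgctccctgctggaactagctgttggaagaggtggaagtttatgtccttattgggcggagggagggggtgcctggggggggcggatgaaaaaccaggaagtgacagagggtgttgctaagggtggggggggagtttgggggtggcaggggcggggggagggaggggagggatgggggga
The reverse complement of the RUNX core was present once, in the Adgrg5 promoter, and the other 3 windows held none of the 3 motifs. Among promoters matched by symbol, the RUNX core was found in 17.4% of 23 for genes more than 5-fold higher in FlipFlop CD4, in 13.9% of 158 for those higher in FlipFlop CD8 and in 12.4% of 8617 for all genes tested. For the TCF/LEF core the shares were 26.1%, 11.4% and 11.7%, and for the T-box core 8.70%, 3.16% and 3.34%, in the same order. Over all 32851 promoters of the reference table the shares were 16.8%, 16.0% and 3.98%. These shares are descriptions of the letters in these windows.

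Among the genes higher in FlipFlop CD4 T cells, Slc6a19 was at 25.3, 63.5 and 32.6 CPM, against 0.418, 0.893 and 0.171 CPM in FlipFlop CD8 T cells (5.32 ± 0.37, adjusted p = 3.0e-05). Adgrg5 was at 94.8, 80.3 and 89.3 against 5.59, 2.81 and 2.57 CPM (4.48 ± 0.24, adjusted p = 9.0e-06). All 3 CD4 libraries were above all 3 CD8 libraries for both, although Slc6a19 varied widely within the CD4 group. Klrd1, which encodes the CD94 chain of killer lectin-like receptors, was at 57.2, 45.8 and 44.8 against 4.27, 4.17 and 3.0 CPM (3.53 ± 0.15, adjusted p = 2.8e-06). Fcgrt, which encodes the neonatal Fc receptor chain, was at 49.7, 62.7 and 67.7 against 4.37, 3.27 and 3.80 CPM (3.81 ± 0.14, adjusted p = 1.6e-06). The other genes of the 12 largest rises were Bace1 (the β-secretase, 4.23), Bend4 (3.92), Rcn3 (a calcium-binding protein of the endoplasmic reticulum, 3.91), Haao (an enzyme of tryptophan breakdown, 3.83), Lcn4 (3.66), Plekha6 (3.53), Cd4 and Cd8b1, as log2 differences. These 12 were taken from the genes called at an unadjusted p under 0.0001 with a difference of more than 5-fold and a mean of at least 10 CPM in the higher group.

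Beside Cd8a, Zbtb7b and Ly6c1, the largest differences toward FlipFlop CD8 T cells included those of several regulatory T cell genes. Foxp3 was at 2.30, 2.07 and 1.60 CPM in FlipFlop CD4 and at 305, 362 and 312 CPM in FlipFlop CD8 T cells, the widest difference of all named genes (-7.04 ± 0.12, adjusted p = 5.2e-08). Lrrc32, which encodes the TGF-β-binding protein GARP, was at 0.0985, 0.399 and 0.260 against 62.8, 85.1 and 75.8 CPM (-6.65 ± 0.18, adjusted p = 4.1e-07). Il2ra, the α chain of the IL-2 receptor, was at 3.38, 3.88 and 3.31 against 195, 251 and 249 CPM (-5.84 ± 0.11, adjusted p = 9.0e-08). The 3 genes were at a low level in each CD4 library and at a high level in each CD8 library. Of the 20 regulatory T cell genes listed, 19 were tested, 18 were higher in FlipFlop CD8, 15 of them by more than 5-fold, and none was higher in FlipFlop CD4 T cells. Over all genes tested 16.7% were higher in FlipFlop CD8 T cells. The median log2 difference of the list was -3.99, against 0.04 over all genes tested. The 18 included Nrp1 (-4.34), Gpr83 (-4.43), Itgb8 (-4.19), Ebi3 (-4.12), Ikzf2 (Helios, -3.99) and Ctla4 (-3.29). Among them Lrrc32, Klrg1 and Itgb8 were under 1 CPM in every FlipFlop CD4 library, so the filter fixed their direction. Itgae, which encodes CD103, was at 113, 76.4 and 50.3 against 86.1, 98.6 and 75.0 CPM, and was not called (-0.18 ± 0.26, adjusted p = 0.62). Il10 was below the limit for testing, at 0.0657 to 0.112 CPM in FlipFlop CD4 and 0.331 to 0.772 CPM in FlipFlop CD8 T cells.

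Genes through which helper T cells act on other cells were higher in FlipFlop CD8 T cells. Cd40lg, the ligand for CD40 on B cells and dendritic cells, was at 2.82, 3.59 and 2.38 CPM in FlipFlop CD4 and at 58.6, 51.3 and 52.8 CPM in FlipFlop CD8 T cells (-4.01 ± 0.13, adjusted p = 1.1e-06). Tnfrsf4, which encodes the costimulatory receptor OX40, was at 2.33, 1.70 and 1.97 against 110, 109 and 97.3 CPM (-5.41 ± 0.11, adjusted p = 9.0e-08). All 15 tested helper surface proteins and cytokines, of 17 listed, were higher in FlipFlop CD8 T cells, with a median of -2.09. Over all genes tested the share was 16.7%. Il4 and Il21 of this list were under 1 CPM in every FlipFlop CD4 library, so the filter fixed their direction. When each FlipFlop library was left out in turn, 14 or 15 genes of the list were past the test. At the small end were Tnfsf8 (-0.49) and Slamf6 (-0.41). Il4, the cytokine of type 2 help, had no read in any FlipFlop CD4 library and 1.45, 1.62 and 1.80 CPM in FlipFlop CD8 T cells, which is at least 15.3-fold higher when the CD4 group is set at 3 reads per library. Il21, the cytokine of follicular help, was at 0.230, 0.181 and 0.297 against 6.14, 3.51 and 6.23 CPM (-2.94 ± 0.22, adjusted p = 4.5e-05). Il2, at 0.113 to 0.189 CPM against 0.706 to 1.12 CPM, and Il17a, at 0.0362 to 0.0985 against 0.386 to 0.529 CPM, were too low for testing.

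Follicular helper genes followed the same direction. Of 16 listed genes 15 were tested and 14 were higher in FlipFlop CD8 T cells, with a median of -2.08. Among the 14, Il4, Il21, Tox2 and Sostdc1 were under 1 CPM in every FlipFlop CD4 library, so the filter fixed their direction. Many genes of the follicular list, such as Cxcr5, Pdcd1, Icos, Il21 and Il4, also belong to the helper surface list above. Bcl6, Tox2, Ascl2 and Pou2af1 also belong to the list of helper transcription factors below. Tox2 was at 0.591, 0.652 and 0.669 against 14.8, 14.5 and 11.1 CPM (-3.61 ± 0.14, adjusted p = 2.1e-06). Pdcd1, which encodes the inhibitory receptor PD-1, was at 5.22, 2.90 and 4.42 against 55.4, 44.7 and 47.8 CPM (-3.44 ± 0.19, adjusted p = 9.6e-06). Differences were smaller for Cxcr5, the receptor that guides cells to B cell follicles, at 27.2, 22.4 and 41.3 against 105, 79.8 and 76.6 CPM (-1.54 ± 0.22, adjusted p = 0.0011), and for Bcl6 (-0.81 ± 0.09, adjusted p = 2.8e-04). Pou2af1 was at 21.2 to 22.1 against 19.6 to 22.7 CPM and was not called (adjusted p = 0.73). Among 14 tested transcription factors linked with helper T cells, 12 were higher in FlipFlop CD8 T cells, 6 of them by more than 5-fold, and none in FlipFlop CD4 T cells. They included Maf (-4.49) and Gata3 of type 2 helper cells (-1.05), while Myb was at 16.4 to 28.6 against 15.8 to 23.5 CPM and was not called. Foxp3, Ikzf2 and Ikzf4 of this list, and Ctla4 and Tnfrsf4 of the helper surface list, were also counted among the regulatory T cell genes. The counts of these lists are therefore not independent.

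**Figure D3:**
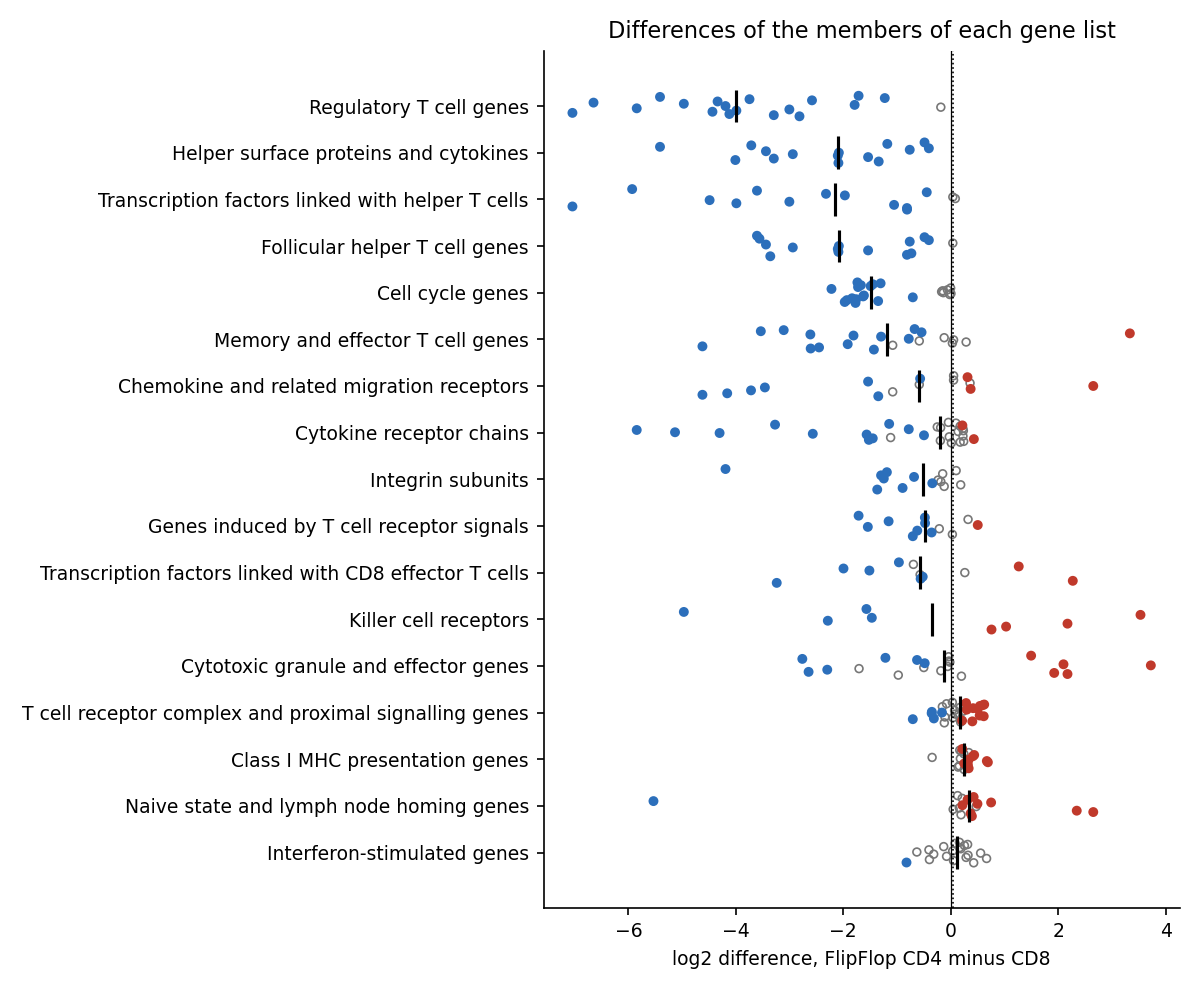
Log2 difference, FlipFlop CD4 minus CD8 (horizontal axis), of each tested member of 17 gene lists. Filled points passed an adjusted p of 0.05 (red higher in CD4, blue higher in CD8), open points did not, thick bars are list medians and the dotted line is the median of all genes tested. Regulatory T cell genes lie farthest to the left, with a median of -3.99, and the cytotoxic lists fall on both sides of 0.

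Cytotoxic genes did not move as a group. Of 20 tested granule and effector genes, 5 were higher in FlipFlop CD4, 6 were higher in FlipFlop CD8 and 9 were not called, with a median of -0.12. Over all genes tested 17.0% were higher in FlipFlop CD4 and 16.7% in FlipFlop CD8 T cells. Prf1, the pore-forming protein perforin, was at 204, 229 and 206 CPM in FlipFlop CD4 and at 64.4, 47.6 and 39.1 CPM in FlipFlop CD8 T cells (2.10 ± 0.16, adjusted p = 4.7e-05). Ctsw, a protease of cytotoxic cells, was at 161, 148 and 150 against 52.1, 34.7 and 35.1 CPM (1.93 ± 0.15, adjusted p = 4.7e-05). Both were higher in each CD4 library than in each CD8 library, and Crtam, an adhesion molecule of activated CD8 T cells (2.17 ± 0.14), and Xcl1, a chemokine for cross-presenting dendritic cells (1.5 ± 0.18), behaved alike. Nkg7, a granule membrane protein, was at 296, 297 and 293 against 67.3, 10.1 and 15.1 CPM (3.73 ± 0.59, adjusted p = 0.0021). The opposite direction was seen for Gzmb, which encodes granzyme B, at 1.74, 0.979 and 1.60 against 9.0, 10.3 and 7.54 CPM (-2.30 ± 0.19, adjusted p = 7.3e-05). Fasl, the ligand of the death receptor Fas, was at 1.08, 0.797 and 0.855 against 10.6, 7.80 and 6.92 CPM (-2.65 ± 0.18, adjusted p = 2.5e-05). Stx11, which serves granule fusion (-2.76), Tnf (-1.22), Srgn (-0.63) and Rab27a (-0.48) were also higher in FlipFlop CD8 T cells.

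Libraries of the FlipFlop CD8 group stood apart for several effector genes. FlipFlop CD8 replicate 1 was more than 2-fold above both other FlipFlop CD8 libraries for 6 of the 20 effector genes, and no other FlipFlop library was for more than 1. FlipFlop CD8 replicate 2 was more than 2-fold below both of its partners, each at 1 CPM or more, for 4 of the 20, and no other FlipFlop library was for any. Gzmm, granzyme M, was at 20.1 CPM in FlipFlop CD8 replicate 1 and at 0.364 and 0.886 CPM in FlipFlop CD8 replicates 2 and 3, against 1.94, 1.09 and 1.75 CPM for FlipFlop CD4 T cells. The log2 difference was -0.50 ± 1.04 (adjusted p = 0.74) with all libraries and 0.91 ± 0.28 (adjusted p = 0.047) without FlipFlop CD8 replicate 1. Ccl5, a chemokine of effector T cells, was at 164, 15.3 and 35.8 CPM in FlipFlop CD8 against 37.2, 18.5 and 16.8 CPM in the FlipFlop CD4 libraries (-0.98 ± 0.76, adjusted p = 0.36). Gzmk (-1.71, adjusted p = 0.059) and Gzma (adjusted p = 0.78) were also not called. With the replicate block Ccl5 (adjusted p = 0.048) and Gzmk (adjusted p = 0.0029) passed the test, so that 8 effector genes were higher in FlipFlop CD8 T cells. Without FlipFlop CD8 replicate 1 the difference of Nkg7 was 4.53 ± 0.15 (adjusted p = 5.5e-06), that is, larger and better defined. The same library was also highest for transcripts that do not belong to T cell function, such as Gm42418, at 2435 CPM against 449 and 563 CPM, and Rn7sk, at 11.1 against 2.74 and 3.35 CPM. Over all tested genes it stood more than 2-fold above both partners for 55 genes, against 17 to 33 for the other 5 libraries. FlipFlop CD8 replicate 2 did not stand apart in this way, with 25 genes more than 2-fold below both partners, against 26 to 35 for the other 5 libraries. The part of such library differences in the effector values was not tested.

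**Figure D4:**
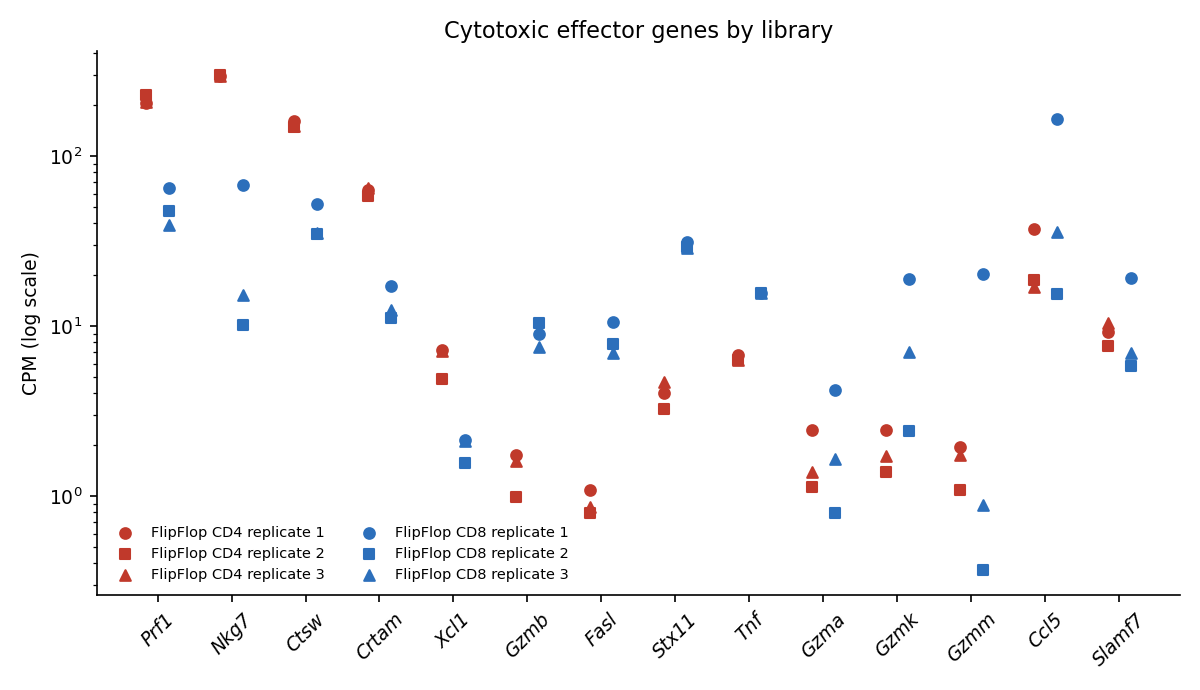
CPM on a log scale (vertical axis) of 14 effector genes in the FlipFlop CD4 (red) and CD8 (blue) libraries, with symbols for replicates 1 (circle), 2 (square) and 3 (triangle). The CD4 libraries lie together for Prf1, Nkg7 and Ctsw, and the blue circle, FlipFlop CD8 replicate 1, stands above the other CD8 libraries for Nkg7, Gzma, Gzmk, Gzmm, Ccl5 and Slamf7.

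Of 11 tested transcription factors linked with CD8 effector T cells, 2 were higher in FlipFlop CD4 and 6 in FlipFlop CD8 T cells (median -0.57). Over all genes tested the shares were 17.0% and 16.7%, so the number higher in FlipFlop CD4 was close to the share of all genes. Beside Runx3, the T-box factor Eomes was at 42.2, 60.7 and 91.8 against 21.1, 7.41 and 12 CPM (2.27 ± 0.38, adjusted p = 0.0029). Its relative Tbx21, which encodes T-bet, was at 10.4, 6.09 and 7.40 against 22.4, 9.23 and 10.3 CPM and was not called (-0.69, adjusted p = 0.14), but passed the test with the replicate block (adjusted p = 0.0019). With that block 3 of the 11 were higher in FlipFlop CD4 and 8 in FlipFlop CD8 T cells. Those higher in FlipFlop CD8 T cells were Bhlhe40 (-3.24), Prdm1 (Blimp-1, -2.00), Nfil3 (-1.51), Zfp683 (Hobit, -0.96), Hopx (-0.56) and Id2 (-0.52), several of which are also used by effector and regulatory cells of the helper lineage. Of 8 tested killer cell receptors, Klrd1, Crtam, Cd226 (1.03) and Cd160 (0.76) were higher in FlipFlop CD4 T cells, and Klrg1 (-4.97), Klrb1c (-2.29), Klrk1 (NKG2D, -1.57) and Klrb1f (-1.47) were higher in FlipFlop CD8 T cells. Cd160 overlapped between the groups, at 12.6 to 20.3 against 7.54 to 13.0 CPM. Klrg1 was again highest in FlipFlop CD8 replicate 1, at 46.3 CPM against 14.7 and 15.4 CPM in the others and 0.0362 to 0.624 CPM in FlipFlop CD4 T cells.

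Genes of antigen-experienced and dividing cells were higher in FlipFlop CD8 T cells. Cd44, an adhesion receptor that rises after activation, was at 35.2, 41.8 and 38.9 against 160, 148 and 134 CPM (-1.92 ± 0.09, adjusted p = 4.1e-06). S100a4, a calcium-binding protein of memory cells, was at 8.87, 6.49 and 5.17 against 117, 81.9 and 59.4 CPM (-3.53 ± 0.26, adjusted p = 3.9e-05). Of 20 tested memory and effector genes, 13 were higher in FlipFlop CD8 T cells and 1, Ly6c2 (3.33), was higher in FlipFlop CD4 T cells, with a median of -1.19. Cxcr3, Cxcr6, Cd69, Itga4 and Crip1 were among those not called, of which Crip1 (0.29) passed with the replicate block (adjusted p = 0.0036). Of 23 cell cycle genes, 16 were higher in FlipFlop CD8 T cells and none in FlipFlop CD4 T cells (median -1.49). Mki67, the proliferation antigen Ki-67, was at 12, 10.1 and 9.67 against 46.5, 63.9 and 44.6 CPM (-2.22 ± 0.15, adjusted p = 2.4e-05). Top2a (-1.45), Ccnb1 (-1.76) and Aurkb (-1.77), which act in mitosis, were among the 16. The 7 that were not called were Pcna and Mcm2 to Mcm7 of DNA replication, with differences of -0.17 to 0.01, of which Mcm4, Mcm5 and Mcm6 passed with the replicate block (adjusted p = 0.030, 0.034 and 0.017) as higher in FlipFlop CD8 T cells.

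Naive and LN homing genes leaned toward FlipFlop CD4 T cells. Of 16, 9 were higher in FlipFlop CD4 T cells and 1, Ly6c1, was higher in FlipFlop CD8 T cells, with a median of 0.34. With the replicate block 14 were higher in FlipFlop CD4 T cells, and without the TMM factor 5 were. Most differences were small, as for Klf2, a factor that maintains recirculation, at 402, 443 and 361 against 308, 301 and 246 CPM (0.50 ± 0.11, adjusted p = 0.0094). Lef1, a TCF family factor, was at 522, 557 and 521 against 297, 325 and 327 CPM (0.75 ± 0.06, adjusted p = 8.4e-05), whereas Tcf7 (0.13) was not called, but passed with the replicate block (adjusted p = 0.038). Larger were Ccr9, the receptor for the gut and thymus chemokine CCL25, at 342, 251 and 245 against 40.3, 48.1 and 42.4 CPM (2.65 ± 0.13, adjusted p = 6.3e-06), and Dapl1, at 171, 157 and 105 against 31.0, 26.4 and 25.1 CPM (2.35 ± 0.17, adjusted p = 4.2e-05). The neighbouring and similar genes Ly6c1 and Ly6c2 differed in opposite directions (-5.53 and 3.33), and how reads that match both were assigned is not given in the sources used here, so both values are uncertain.

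Migration and cytokine receptors differed gene by gene. Ccr2, which guides cells to inflamed tissue, was at 1.93, 1.09 and 1.33 against 52.4, 47.2 and 41.1 CPM (-4.62 ± 0.17, adjusted p = 1.6e-06). Ccr4 (-4.16), Ccr6 (-3.72) and Ccr8 (-3.46) had the same direction, and in all 7 of 15 tested receptors were higher in FlipFlop CD8 and 3 in FlipFlop CD4 T cells. Over all genes tested 16.7% were higher in FlipFlop CD8 and 17.0% in FlipFlop CD4 T cells, so the latter count was close to that share. Il1rl1, the receptor for IL-33, was at 0.131, 0.0725 and 0.0744 against 21.5, 22 and 17.6 CPM (-5.13 ± 0.13, adjusted p = 4.0e-07). Of 28 cytokine receptor chains, 11 were higher in FlipFlop CD8, among them the decoy receptor Il1r2 (-4.30) and Il9r (-3.27), and 2 were higher in FlipFlop CD4 T cells. The number higher in CD4 was 9 with the replicate block, 5 without FlipFlop CD8 replicate 1 and 1 without FlipFlop CD4 replicate 2, FlipFlop CD8 replicate 2 or FlipFlop CD8 replicate 3. Of 14 tested integrin subunits 8 were higher in FlipFlop CD8 T cells, with Itgb8 (-4.19), Itgb1 (-1.30) and Itgb3 (-1.19) among them, and none was higher in FlipFlop CD4 T cells, against 10 and 1 with the replicate block.

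The TCR complex itself differed little. Of 29 genes of the complex and its proximal signalling, 11 were higher in FlipFlop CD4 and 5 in FlipFlop CD8 T cells, all within -0.71 to 0.62 on the log2 scale. Without the TMM factor the counts were 7 and 8 and the median changed from 0.17 to 0.00, so no direction is given for the list. The largest were Txk, a Tec family kinase, at 96.0, 99.3 and 104 against 64.5, 63.4 and 65.7 CPM (0.62 ± 0.05, adjusted p = 8.4e-05), and Cd5, an inhibitory surface protein of T cells, at 214, 215 and 223 against 359, 348 and 357 CPM (-0.71 ± 0.05, adjusted p = 3.5e-05). Genes that TCR signals induce were more often higher in FlipFlop CD8 T cells, with 8 of 12 in that direction and 1, Myc (0.50), in the other. Nr4a1, an early target of TCR signals, was at 31.8, 29.3 and 32.6 against 77.3, 63.7 and 70.1 CPM (-1.16 ± 0.08, adjusted p = 3.6e-05), and Irf4 differed by -1.54 ± 0.12. Of 18 genes of class I MHC presentation 9 were higher in FlipFlop CD4 T cells, by 0.22 to 0.69, but 3 were without the TMM factor, 17 with the replicate block, 5 without FlipFlop CD4 replicate 1 and 14 without FlipFlop CD8 replicate 1. The similar genes H2-Q6 (0.69) and H2-Q7 (0.67) may share reads and are uncertain. Of 20 interferon-stimulated genes 1, Ifi27l2a (-0.83), was called, and with the replicate block 9 were higher in FlipFlop CD4 and 4 in FlipFlop CD8 T cells. Early response and stress genes gave 3 of 9, a share close to the 33.8% of all genes, and the 3 were higher in FlipFlop CD8 T cells, with Dusp1 (-1.46) the largest. With the replicate block 2 of the 9 were higher in FlipFlop CD4 and 6 in FlipFlop CD8 T cells.

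Markers of the sorted cells and of other cell types were followed in the same libraries. The 12 pan T cell markers summed to 7507 to 7956 CPM in FlipFlop CD4 and 6790 to 7525 CPM in FlipFlop CD8 T cells, and none was at 0. Of them Cd3d, Cd3e and Thy1 were higher in FlipFlop CD4 and Cd5 in FlipFlop CD8 T cells, a share close to the 33.8% of all genes tested. With the replicate block 5 and 2 of the 12 were, and without the TMM factor 2 and 3. The 7 markers of γδ and NKT cells in the table, of 8 listed, summed to 9.0 to 10.6 CPM in FlipFlop CD4 and 32.2 to 39.4 CPM in FlipFlop CD8 T cells, and 4 of 6 tested were higher in FlipFlop CD8 T cells. Zbtb16, which encodes the NKT cell factor PLZF, had no read in the FlipFlop CD4 libraries and was at 4.31, 10.2 and 9.29 CPM in FlipFlop CD8 T cells, at least 74.6-fold higher when the CD4 group is set at 3 reads per library. The γ-chain constant segments Tcrg-C1, Tcrg-C2 and Tcrg-C4, which are similar in sequence and may share reads, were at 4.11 to 9.46 CPM in FlipFlop CD8 and 0.164 to 0.657 CPM in FlipFlop CD4 T cells. Trdc, the δ-chain constant gene, was not called, at 7.32 to 8.70 against 6.49 to 7.32 CPM (adjusted p = 0.33). The 4 NK cell markers in the table, of 8 listed, summed to 4.69 to 6.07 against 14.2 to 17.1 CPM, and 2 were higher in FlipFlop CD8 T cells, Klrb1c (-2.29) and Tyrobp (-0.61). The 8 myeloid markers, of 12 listed, summed to 55.9 to 71.8 against 73.8 to 92.5 CPM, and 3 of 4 tested were higher in FlipFlop CD8 T cells, with Lyz2 at 9.44 to 20.8 CPM there. The 12 B cell markers summed to 592 to 659 against 604 to 735 CPM, with 1 called in each direction (Cd79b, 0.67, and Fcmr, -0.52). The 4 red blood cell markers, of 6 listed, summed to 6.67 to 14.2 against 9.62 to 14.2 CPM, and the 2 stromal and endothelial markers, of 8 listed, to 154 to 165 against 161 to 175 CPM, and none of these was called. Of the called γδ, NKT, NK and myeloid markers, Zbtb16, Tcrg-C1, Tcrg-C2, Tcrg-C4, Tyrobp, Itgam and Cd68 were under 1 CPM in every FlipFlop CD4 library. They entered the test only through the FlipFlop CD8 group, so the filter fixed their direction. Klrb1c and Lyz2 exceeded 1 CPM in every library of both groups, and had the direction of the memory, cell cycle, regulatory and helper genes. Trdc and the other tested markers of these lists were not called. The part of such cells in those differences was not tested.

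The FlipFlop difference was then set beside the B6 difference between CD8 and CD4 T cells, which shares no library with it, and the difference in size was tested in a fit of all 12 libraries (11595 genes). Of all genes, 636 (5.49%) differed in size at an adjusted p under 0.05, a number that fell to 396, 399, 405 and 412 without B6 CD8 replicate 2, B6 CD8 replicate 3, FlipFlop CD4 replicate 2 and FlipFlop CD8 replicate 2. Of the 216 genes more than 5-fold higher in FlipFlop CD8 T cells, 203 were higher in B6 CD4 than in B6 CD8 T cells at an adjusted p under 0.05. Size differed for 94 of the 216. Of these, 82 had the opposite sign in B6 and a wider gap in FlipFlop, 6 the opposite sign and a narrower gap, and 6, among them Cd8a, Coro2a and Gpr15, the same sign in both strains. Of the 32 genes higher in FlipFlop CD4 T cells, 31 were higher in B6 CD8 than in B6 CD4 T cells, and 12 of the 32 differed in size, 4 with a wider and 7 with a narrower gap, beside Cd4, which had the same sign in both strains. The 248 genes were chosen for a large FlipFlop difference, so these counts describe them and are no evidence about size. Strain and age change together between FlipFlop and B6 mice and cannot be told apart.

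Outside the coreceptors, the genes with the largest difference in size included Coro2a, Gpr15, Ccr2, Ly6c2, Anxa2 and Adgrg5. Gpr15, a homing receptor for the large intestine, was at 0.460, 0.870 and 0.521 CPM in FlipFlop CD4 and at 15.2, 12.3 and 12.8 CPM in FlipFlop CD8 T cells, whereas the B6 groups had 3.74 ± 0.98 CPM (CD4) and 4.0 ± 0.66 CPM (CD8) (SD, n = 3, size difference -3.75 ± 0.27, SE, adjusted p = 1.0e-05). Ccr2 differed by -4.62 in FlipFlop and by 0.87 in B6 T cells (size difference -3.75, adjusted p = 2.6e-04). Anxa2, a membrane-binding protein of memory cells, was at 9.65, 9.02 and 7.32 against 59.4, 58.8 and 34.3 CPM in FlipFlop T cells, with a B6 difference of 0.44 (size difference -2.01, adjusted p = 6.7e-04). Coro2a, an actin-binding protein, varied in FlipFlop CD4 T cells, at 13.1, 7.36 and 2.53 CPM, against 74.4, 80.3 and 75.7 CPM in FlipFlop CD8 T cells, and its B6 difference of -0.43 was not called. On the narrower side, Adgrg5 differed by 4.48 in FlipFlop and by -6.44 in B6 T cells (size difference -1.96, adjusted p = 0.0042), and Cd40lg by -4.01 and 5.87 (size difference 1.87, adjusted p = 8.0e-04). For Foxp3 (size difference -0.80), Zbtb7b (0.67) and Slc6a19 (-1.06) a difference in size was not called.

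**Figure D5:**
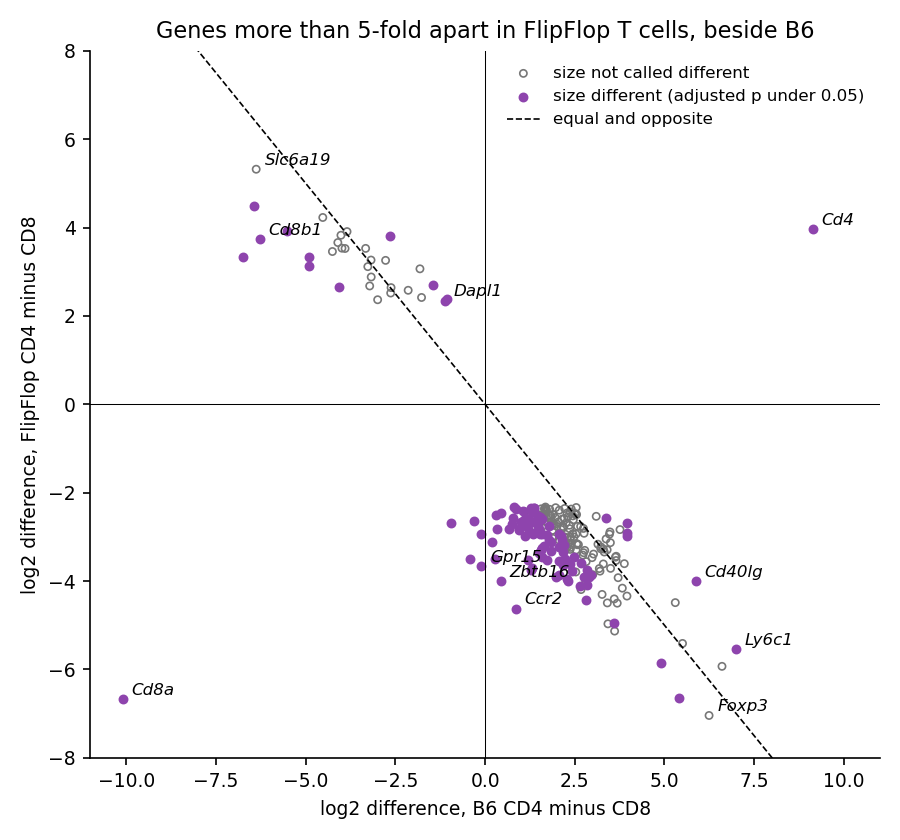
Log2 difference, CD4 minus CD8, in B6 (horizontal axis) and FlipFlop T cells (vertical axis) for the 248 genes more than 5-fold apart in FlipFlop T cells. The dashed line is equal and opposite, and filled points differed in size from it at an adjusted p under 0.05. Most points lie in the upper left and lower right, Cd4 lies in the upper right and Cd8a in the lower left, and Ccr2, Gpr15 and Zbtb16 lie far below a B6 difference near 0.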

How the data were processed

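RNA-sequencing of sorted LN T cells was analysed for 3 FlipFlop CD4 and 3 FlipFlop CD8 libraries, and 6 B6 libraries served as reference. The authors used a low-input kit that amplifies cDNA and paired-end sequencing. Reads were aligned to mm10 with STAR per the methods, whereas the submitters' processing notes name Trimmomatic and TopHat. The counting program, the annotation and the filter on low values are not given in the sources used here. The authors deposited 1 table of normalized signal, CPM divided by a TMM factor, with 12809 genes and 1 column per library. All identifiers matched GENCODE M21 (GRCm38), and genes were followed by identifier because 13 symbols belong to more than 1 gene. Whole reads made up less of the low values than needed to recover counts, so no count model was run.

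Genes reaching 1 CPM in 3 or more of the 6 FlipFlop libraries were fitted as log2(CPM + 0.5) with limma 3.58.1 in R 4.3.3 (lmFit, eBayes with trend), with 1 mean per group. P-values are two-sided and adjusted by Benjamini-Hochberg over all tested genes. The size test contrasts FlipFlop CD4 minus CD8 with B6 CD8 minus CD4 in 12 libraries, over genes that reach this level in 3 of them. On simulated data of 11307 genes for the FlipFlop comparison, 199 of 200 genes changed 4-fold and 9 others were called. The changed genes averaged at least 10 CPM and the libraries were drawn independently. Lower genes and any link between libraries were therefore not covered.

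Deviations from the group means of FlipFlop CD4 and CD8 libraries with the same replicate number correlated at 0.46, 0.27 and 0.55 (3 pairs), each over 0.1, and at -0.42 to 0.00 with different numbers. By this rule the numbers pair the libraries, although the labels do not say what they share. A fit with the replicate number as a block was an alternative.

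Named genes were the coreceptor genes, the 12 largest rises and falls among 5-fold calls with at least 10 CPM, up to 6 called members per list, and 10 genes by size difference. Some genes that these rules give are not reported here. Other list members were named after their values were seen. The members, lists (353 symbols, 303 tested) and rules were chosen with earlier results of these data known. Some genes belong to more than 1 list. Promoters came from a RefSeq table (GRCm38.p6). Alternatives were pseudocounts of 0.1 and 1, no filter, a mean of at least 5 CPM, no TMM factor, median-of-ratios rescaling, 12 libraries, no eBayes, other thresholds, the block, and each library left out.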

Additional observations from a re-analysis of the deposited data

Results flagged for a closer look

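The CD4 minus CD8 difference itself differed between FlipFlop and B6 T cells for 4554 of 11595 genes at an adjusted p under 0.05 (limma, interaction over 12 libraries). With the B6 difference turned round, the size of the difference set apart several named genes, whose log2 size differences, FlipFlop CD4 minus CD8 against B6 CD8 minus CD4, are as follows. For the coreceptor genes they were -16.77 for Cd8a, 13.10 for Cd4 and -2.56 for Cd8b1. The first 2 have these values because Cd4 and Cd8a followed the sorted coreceptor in both strains. Wider gaps toward FlipFlop CD8 were found for Ccr2 (-3.75) and Anxa2 (-2.01). Coro2a (-3.93) and Gpr15 (-3.75) had the same sign in both strains, with B6 differences of -0.43 and -0.10 that were not called. Narrower gaps toward FlipFlop CD4 were found for Ly6c2 (-3.43) and Adgrg5 (-1.96). Groups of 3 libraries are too small for a test of single outlying samples, so FlipFlop CD8 replicate 1 was described by its values only.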

How the results depend on the processing

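The number of genes at an adjusted p under 0.05 (3817) ranged from 2642 to 3779 when 1 FlipFlop library was left out, from 1132 to 1863 for those higher in CD4 and from 1510 to 1916 for those higher in CD8. With the replicate block it was 5785, of which 3184 were higher in CD4. With a mean of at least 5 CPM 1172 were higher in CD8, and without the TMM factor 786 were higher in CD4 and 3136 in CD8. The 5-fold count (248, 216 of them higher in CD8) was 387 (347) with a pseudocount of 0.1, 160 (132) with a pseudocount of 1, 145 (118) with a mean of at least 5 CPM and 126 (115, and 11 higher in CD4) without eBayes. It was 1024 at an adjusted p under 0.05 with 2-fold, 170 higher in CD4 and 854 in CD8, and 236 to 258 when a library was left out, 28 to 36 higher in CD4 and 208 to 228 in CD8. Size differed from B6 for 301 genes with a mean of at least 5 CPM, for 954 with the replicate block, and for 396 to 604 when 1 of 12 libraries was left out. The lowest, 396, 399, 405 and 412, were without B6 CD8 replicate 2, B6 CD8 replicate 3, FlipFlop CD4 replicate 2 and FlipFlop CD8 replicate 2. The cause of these shifts was not tested. The 5 CPM filter also leaves fewer genes to call, and the fits without a library have fewer libraries.

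Of 317 listed or named genes under 15 alternatives, 1 result changed direction with a call, Gzmm, at 0.91 without FlipFlop CD8 replicate 1 (range -1.38 to 0.91 over the libraries left out), while 129 lost and 113 gained a call among 4714 values, the most gains (63) with the replicate block and the most losses (30) without eBayes. The 29 genes named for a large difference or size kept their direction and call under all 15. They were chosen for large differences, so this is no separate support. Low genes are limited by depth, since below about 0.1 CPM a library held 3 reads or fewer.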

Other observations

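The TCR variable segments, which lie outside the comparisons above, were compared within the fit of 12 libraries. Of 21 Trbv segments, 6 differed between FlipFlop CD4 and CD8 T cells and 16 between B6 CD4 and CD8 T cells at an adjusted p under 0.05, with median absolute log2 differences of 0.21 and 0.84, and 13 differed between the strains in the interaction. Of 83 tested Trav segments, of which 20 had values identical to those of another segment, 3 differed in FlipFlop and 39 in B6 T cells, with medians of 0.17 and 0.43, and 29 differed in the interaction. Over all 11595 genes the corresponding counts were 3633 (31.3%) and 2944 (25.4%), so FlipFlop T cells had the larger share of calls over all genes and the smaller one among V segments. In the interaction 4554 of the 11595 genes were called, a larger share than among the Trav segments and a smaller one than among the Trbv segments. Trbv31 was the segment with the widest B6 gap toward CD4 T cells, at a log2 difference (CD4 minus CD8) of 2.17 in B6 and 0.09 in FlipFlop T cells (interaction adjusted p = 5.3e-08). Trbv2 differed by 1.37 in B6 and by -0.05 in FlipFlop T cells (interaction adjusted p = 1.8e-06), and Trbv14 by -1.17 and 0.27 (interaction adjusted p = 1.2e-06). Of the 6 segments called in FlipFlop T cells, Trbv12-1, Trbv12-2 and Trbv17 were lower in CD4 than in CD8 T cells of both strains. Trbv12-1 differed by -2.03 in B6 and -1.78 in FlipFlop T cells (interaction adjusted p = 0.45), Trbv12-2 by -1.78 and -1.01 (interaction adjusted p = 0.0020) and Trbv17 by -1.17 and -0.32 (interaction adjusted p = 2.9e-04). Trbv14, Trbv3 and Trbv13-1, the rest of the 6, had opposite signs in the strains. Trbv3 differed by 0.70 in B6 and -0.41 in FlipFlop T cells (interaction adjusted p = 3.4e-05). For Trbv13-1 the values were 0.12, not called in B6, and -0.24 (interaction adjusted p = 0.030). These segments were chosen after their values were seen, and strain and age cannot be told apart in them.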
